A study of Rattus norvegicus with 82 samples.

Results

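Hearts of rats taken 6 h after vincristine at 1 mg/kg were compared with hearts taken 6 h after saline. All 6 arrays titled with that compound, dose and time and all 6 arrays titled with the 6 h vehicle were used, 12 of the 82 arrays of the series. The animals were male Wistar rats of the stock Crl:Wi(Han), and no age was given in the sources used here. Every rat, controls included, had a single intravenous injection of 0.9% saline, which in the treated groups carried the drug. RNA of heart tissue, 1 rat per array, was hybridised to Affymetrix 3' expression arrays, so each value is a probe set's intensity on a linear scale. Another 4 groups served for comparison: vincristine at 0.1 mg/kg for 6 h (5 arrays), vinblastine at 3 mg/kg for 6 h (6 arrays), and vincristine at 1 mg/kg and saline, both for 24 h (6 arrays each). The heart was labelled as a whole tissue, and a change in a transcript cannot be told apart here from a change in the number of cells that hold it.

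Vincristine is a vinca alkaloid, a cancer medicine that binds the beta subunit of tubulin and breaks down microtubules, the hollow filaments that alpha and beta tubulin build. Cells read the pool of unassembled tubulin. When it grows, tubulin messenger RNA on ribosomes is degraded, a feedback known as tubulin autoregulation that uses the adaptor Ttc5. Loss of microtubules also releases the exchange factor GEF-H1, which turns on the GTPase RhoA. RhoA then builds actin fibres and turns on genes through the SRF and YAP co-activators. In the heart, microtubules run through the cardiomyocyte beside the myofibrils, and in vessels they help endothelial cells keep their barrier.

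Cardiomyocyte markers were the brightest cell type markers, with summed intensities over 15 genes of 224000 to 278000 in the vehicle hearts and 259000 to 291000 in the vincristine hearts. Median intensities ran from 59.4 to 63.3 on the 12 arrays. Arrays of 1 group correlated with each other at a mean of 0.987 to 0.99 (vehicle) and 0.984 to 0.989 (vincristine) per array.

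The 6 vincristine hearts were not alike. The array labelled replicate 3 lay nearer the 24 h vehicle group than its own. Its root mean square log2 distance was 0.148 to the former and 0.272 to the latter, a ratio of 1.83, and it was the only 1 of the 12 arrays with a ratio over 1.3. The array labelled replicate 1 lay nearest the 6 h vehicle group (ratio 1.24). The other 4 lay nearest the hearts given vinblastine 3 mg/kg or colchicine 2 mg/kg for 6 h, with ratios of 1.08 to 1.16. All 6 were used as labelled, and values without replicate 3 are given where they bear on a result. One control also stood apart: vehicle replicate 2 had high atrial markers, with Myl7, the atrial myosin light chain, at 3338 against 36.9 on the lowest vehicle array, and the summed atrial markers ran from 2320 to 16500 in the vehicle hearts and from 2980 to 4390 in the vincristine hearts.

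Of 11319 genes tested with limma, 374 passed an adjusted p of 0.05, or 3.3%. Of these, 232 were higher (2.05%) and 142 lower (1.25%) after vincristine, and 30 of the rises and 5 of the falls were at least 2-fold, together 0.309% of all genes. An unadjusted p under 0.05 was reached by 2103 genes, where 566 would be reached by chance. The count rested on few animals. It was 31 without vincristine replicate 4, 63 without replicate 5 and 119 without replicate 6, and it was 717 without replicate 3. Among controls, it was 175 without vehicle replicate 3, 230 without vehicle replicate 6 and 249 without vehicle replicate 1. Quantile normalization turned the split of 232 higher and 142 lower into 205 and 225.

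Transcripts of alpha and beta tubulin fell. Of 9 tested, out of 17 listed, 4 fell past the threshold, against 1.25% of all genes, and none rose. The median log2 change was -0.94 beside 0.011 over all genes. Tuba4a, an alpha tubulin abundant in muscle, had intensities of 4732, 5187 and 6258 in the vehicle hearts (lowest, median, highest). In the vincristine hearts it stood at 4038, 508, 5966, 739, 727 and 537 (replicates 1 to 6). Replicates 2, 4, 5 and 6 were thus far below every control, replicate 1 was a little below them and replicate 3 was inside their range. The fitted fall was 4.24-fold (log2 -2.09 ± 0.49, standard error, adjusted p = 0.012). It was -2.54 without replicate 3.

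The same hearts were low for the other tubulins that fell. Tubb4b, a widely expressed beta tubulin, lay between 2802 and 3994 in the vehicle hearts and at 2363, 474, 3389, 509, 584 and 523 in the vincristine hearts (3.52-fold lower, log2 -1.82 ± 0.42, adjusted p = 0.012). Tuba8, an alpha tubulin of striated muscle and testis, lay between 1761 and 2836 and at 1693, 451, 2521, 517, 533 and 423 (log2 -1.49 ± 0.41, adjusted p = 0.028). Tubb5, the general beta tubulin, lay between 945 and 1356 and at 979, 431, 1331, 428, 482 and 460 (log2 -0.94 ± 0.27, adjusted p = 0.031). For Tubb5 both replicates 1 and 3 were inside the vehicle range, and the other 4 hearts were below it.

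Tubb2a did not pass the test, although its 4 low hearts stood at 269 to 298 against a lowest vehicle value of 670 (log2 -0.97 ± 0.34, adjusted p = 0.094 with all arrays, and 0.0203 without replicate 3). The remaining 4 tubulins were dimmer or smaller in change: Tubb6 at log2 -0.20, Tubb4a at -0.11, Tubb2b at -0.03 and Tubb1, the platelet beta tubulin, at 0.13, none past the threshold. The call on the tubulins depended on the spread that the fit used. With a fit to the 12 arrays alone, 1 of the 9 tubulins passed.

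**Figure D1:**
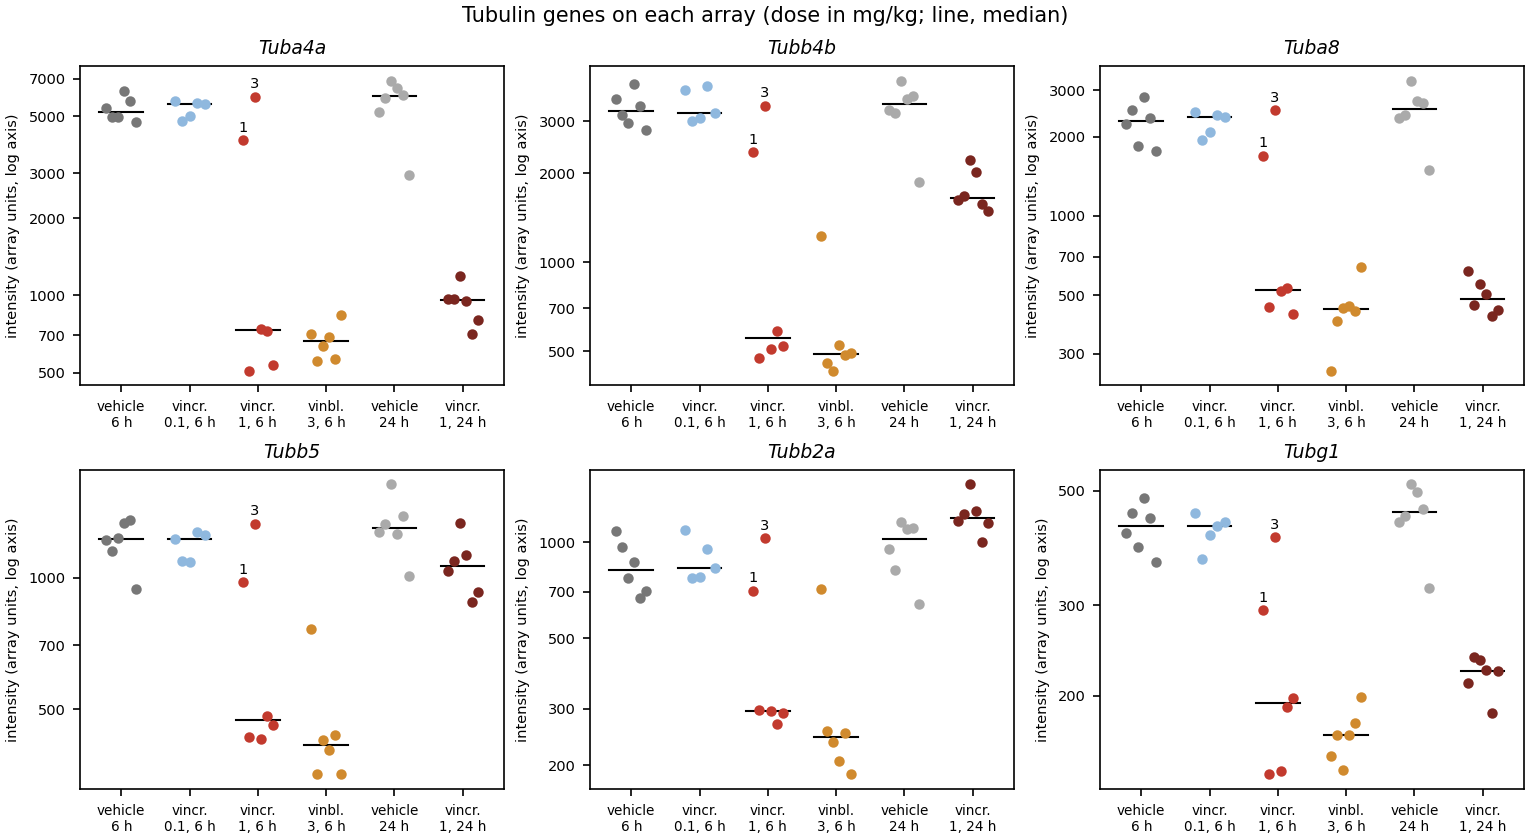
Intensity (log axis) of 5 alpha and beta tubulins and Tubg1 on each array, by group, with the group median as a line and vincristine 1 mg/kg replicates 1 and 3 numbered. Of the 6 vincristine 1 mg/kg hearts at 6 h, 4 lie below all vehicle hearts for each of the 6 genes, while replicate 3 lies among the controls and the 5 hearts given 0.1 mg/kg lie at the control level.

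Gamma tubulin, which nucleates microtubules and is no part of the filament wall, fell too. Tubg1 lay between 364 and 484 in the vehicle hearts and at 293, 141, 406, 143, 190 and 198 in the vincristine hearts (1.91-fold lower, log2 -0.94 ± 0.21, adjusted p = 0.012). It was the only 1 of 11 genes of gamma tubulin and its ring complex past the threshold, beside 3.3% of all genes. No gene of 19 for tubulin folding and decay passed, beside 3.3% of all genes, with a median of 0.15. Ttc5 was at log2 -0.09 ± 0.07, and the chaperonin subunits Cct2 and Cct3 were at 0.25 ± 0.10 and 0.19 ± 0.08. Among 39 microtubule-associated proteins and motors, 2 rose, beside 2.05% of all genes, and 0 in the fit to the 12 arrays alone or to the 6 h arrays. They were Mapre1, which encodes the end-binding protein EB1 (log2 0.33 ± 0.09, adjusted p = 0.019), and Clip1, a linker protein (log2 0.39 ± 0.11, adjusted p = 0.036), which lost its call in 12 of 24 alternatives. For Mapre1 the vehicle hearts reached 681, and the vincristine hearts began at 686.

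C2cd4b, a gene of endothelial cells, was the largest fall outside the tubulins. It lay between 118 and 233 in the vehicle hearts and at 106, 44.7, 148, 38.8, 39.2 and 37.1 after vincristine (log2 -1.34 ± 0.32, adjusted p = 0.013).

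Genes of the actin cytoskeleton and targets of SRF and YAP rose: 6 of 31 tested, against 2.05% of all genes, and none fell (median 0.24). Ccn1, a secreted matricellular protein, showed the largest rise of all genes. The vehicle hearts lay between 34.8 and 77.1 (median 42.7), and the vincristine hearts at 181, 362, 141, 3184, 416 and 323. All 6, replicate 3 included, were above every control, and replicate 4 was far above the rest. The fitted rise was 6.49-fold (log2 2.70 ± 0.71, adjusted p = 0.019), and it was 2.10 at the lowest over the alternatives. Ccn2, connective tissue growth factor, lay between 417 and 709 and at 1519, 3284, 592, 4177, 2618 and 2810 (3.6-fold, log2 1.85 ± 0.40, adjusted p = 0.0091), so that only replicate 3 overlapped the controls.

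The other 4 encode parts or sensors of the filament system. The actin crosslinkers filamin A (Flna, log2 0.63 ± 0.13, adjusted p = 0.0075) and filamin C (Flnc, 1.00 ± 0.29, adjusted p = 0.037) rose. Tpm4, a non-muscle tropomyosin, rose by 0.63 ± 0.13 (adjusted p = 0.0091), and Ankrd1, a titin-bound stretch sensor, by 0.59 ± 0.16 (adjusted p = 0.021). Flna was 1756, 2514, 1442, 1698, 2165 and 1858 against a highest control of 1488, and replicate 3 was the only overlap. Enah, which lengthens actin filaments, rose from 460 to 718 in controls to as much as 2453 (log2 1.35 ± 0.35, adjusted p = 0.018). Rnd1 and Rhou, both small GTPases, were among the 15 largest rises. Rnd1 was near the dim end in controls (24.1 to 35.2) and at 88, 188, 28, 273, 176 and 260 after vincristine (log2 1.77 ± 0.44, adjusted p = 0.015). Rhou went from 23.3 to 34.8 to 85.7, 244, 30.7, 224, 133 and 174 (log2 1.69 ± 0.43, adjusted p = 0.017). Replicate 3 alone stayed in the control range for both.

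The 6 letters GGAATG are the core of the element that TEAD factors, the DNA-binding partners of YAP, recognise. The stretches of promoter below are from genes that rose, and were picked because they hold these letters. They come from RefSeq (build GRCr8), read 5′ to 3′ on the gene's strand, and end at the last base before the annotated start, with each match, on either strand, in capitals. The motif was searched in the 250 bases before the start.
Ccn1 (chr2:237225690-237225809, minus strand): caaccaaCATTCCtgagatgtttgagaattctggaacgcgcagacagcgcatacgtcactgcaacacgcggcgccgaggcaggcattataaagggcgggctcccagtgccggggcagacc
Ccn2 (chr1:22624615-22624784, minus strand): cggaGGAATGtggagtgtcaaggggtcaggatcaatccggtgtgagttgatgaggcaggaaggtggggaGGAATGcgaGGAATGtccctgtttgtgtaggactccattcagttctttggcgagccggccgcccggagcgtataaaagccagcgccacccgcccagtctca
Flna (chrX:157182344-157182423, minus strand): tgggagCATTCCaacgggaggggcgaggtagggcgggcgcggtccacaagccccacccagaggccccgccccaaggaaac
Flnc (chr4:58999417-58999546, plus strand): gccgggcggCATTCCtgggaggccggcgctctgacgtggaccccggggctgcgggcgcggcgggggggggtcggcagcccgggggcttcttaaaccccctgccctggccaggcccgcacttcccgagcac
Nppb (chr5:163699868-163700007, plus strand): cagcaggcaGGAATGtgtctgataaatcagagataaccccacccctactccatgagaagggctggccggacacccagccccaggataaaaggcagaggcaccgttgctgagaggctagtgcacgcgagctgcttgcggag

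Of the 5 called genes of the actin, SRF and YAP list with a promoter in the table, 4 held GGAATG or its reverse complement, Ccn2 at 3 places and Tpm4 at none, beside 962 of 9414 promoters (10.2%) of the genes tested. Among all genes that rose, 26 of 186 promoters (14%) held it, and among those that fell 12 of 119 (10.1%). Of 4 called cardiac stress genes with a promoter, 2 held it, Nppb and Ccn2, and Ccn2 is also counted in the list above. So did Emcn, Gask1b and Tnfsf13, which fell, and Myh6 and Tnnt2, which did not pass. A CArG box, the SRF site, was found in none of the 5 and in 118 of 9414 (1.25%). These matches are a description of the letters in the window, and no binding was measured. The actin, SRF and YAP list was drawn up to hold YAP targets, so its share is not independent of that choice. A match to the NF-kappaB site overlaps the last of the 3 in Ccn2.

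Genes that the strained heart muscle turns on rose: 6 of 20 tested, against 2.05% of all genes, and 1 fell, against 1.25% (median 0.50). Among the 6, Ankrd1 and Ccn2 were also counted in the actin, SRF and YAP list. Nppb, the precursor of the natriuretic peptide BNP, is the classical example. It lay between 2204 and 5377 in the vehicle hearts and at 6716, 11296, 4040, 13302, 9503 and 8493 after vincristine (2.62-fold, log2 1.39 ± 0.33, adjusted p = 0.012). Again 5 hearts were above every control and replicate 3 was inside their range. Rcan1, a feedback inhibitor of calcineurin, rose (log2 1.26 ± 0.29, adjusted p = 0.012), as did Tnfrsf12a, the receptor for the cytokine TWEAK. Tnfrsf12a was 464, 1196, 148, 1155, 845 and 1124 beside 150 to 204 in controls (3.81-fold, log2 1.93 ± 0.47, adjusted p = 0.013). Csrp3, a LIM protein of the Z-disc, rose by 0.51 ± 0.14 (adjusted p = 0.027). Mef2c, a muscle transcription factor, was the 1 that fell (log2 -0.48 ± 0.15, adjusted p = 0.048), and it was named after its value was seen.

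Otud1, a deubiquitinase, was the second largest rise. The controls lay between 312 and 644 and the vincristine hearts at 1786, 4947, 447, 8078, 3363 and 3690 (5.74-fold, log2 2.52 ± 0.57, adjusted p = 0.011). Tmem140 rose 3.1-fold (log2 1.63 ± 0.35, adjusted p = 0.0091), and Pdk4, the kinase that shuts off pyruvate oxidation, from 868 to 1814 in controls to as much as 8804 (log2 1.63 ± 0.40, adjusted p = 0.015). Replicate 3 was inside the control range for all of these.

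The listed cardiomyocyte markers moved little, while Nppb, Ankrd1 and Csrp3 of the cardiac stress list rose as given above. None of the 15 markers passed, beside 3.3% of all genes. All 15 were positive, between 0.06 and 0.13, and after quantile normalization 2 of the 3 named here turned slightly negative. Myh6, the adult rat myosin, was at log2 0.12 ± 0.06, Tnnt2 at 0.13 ± 0.06 and Tnni3 at 0.09 ± 0.05. Of 20 genes of the contractile apparatus 3 rose with the deposited scaling, against 2.05% of all genes, and 0 after quantile normalization. They were Myoz2 (0.28 ± 0.06), Pdlim5 (0.37 ± 0.10) and Csrp3, which the cardiac stress list also holds. Oxidative phosphorylation had 0 of 64 past the threshold, beside 3.3% of all genes (median 0.09, and -0.02 after quantile normalization). Of 32 ion channel and calcium handling genes 1 fell, against 1.25% of all genes. It was Kcnj5, a subunit of the acetylcholine-gated potassium channel (log2 -0.49 ± 0.12, adjusted p = 0.013).

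**Figure D2:**
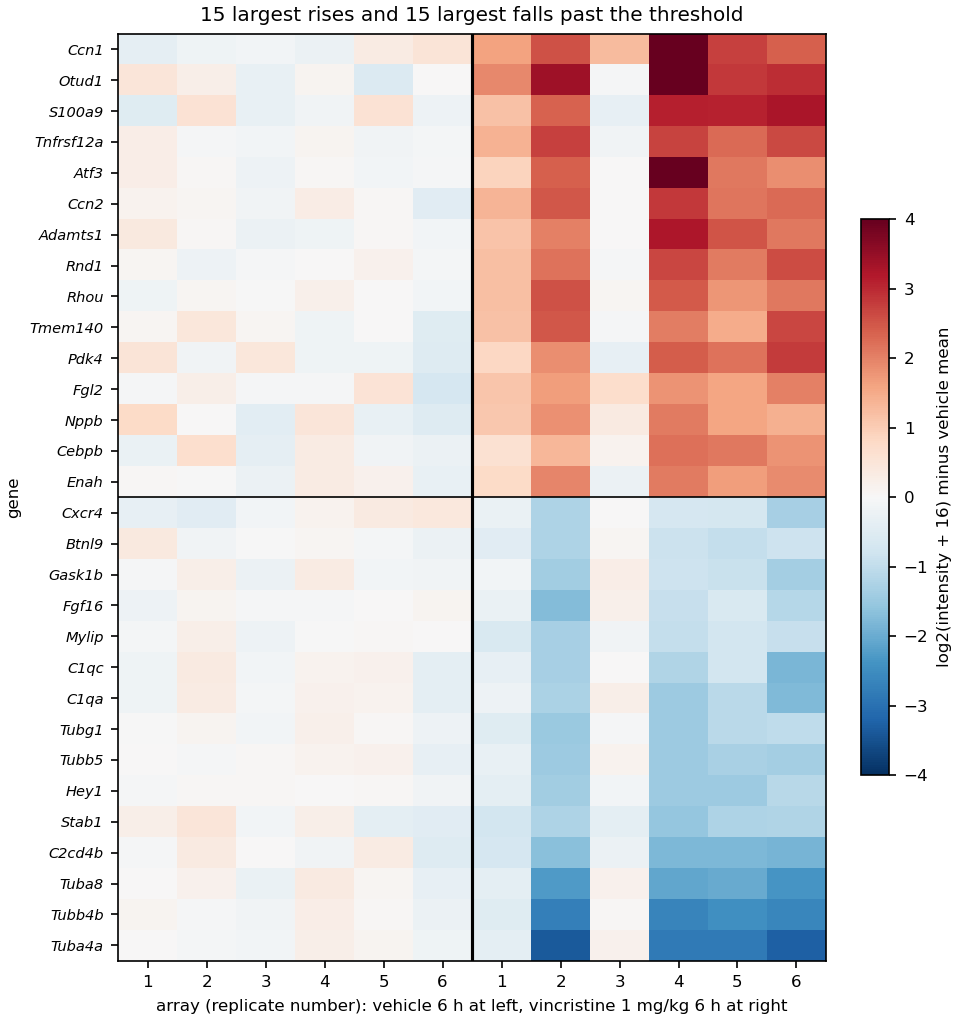
Difference of each array from the vehicle mean in log2(intensity + 16), in colour (scale cut at 4 in either direction), for the 15 largest rises and the 15 largest falls past the threshold, with the 6 vehicle arrays at left and the 6 vincristine 1 mg/kg arrays at right. Columns 2, 4, 5 and 6 at right are strongly coloured, column 1 weakly, and column 3 is near the vehicle mean except in a few rows such as Ccn1 and Fgl2.

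Immediate early genes, transcription factors and feedback genes that respond within an hour to stress or growth signals, were higher 6 h after vincristine: 7 of 27 rose, against 2.05% of all genes, none fell, and the median was 0.45. In the fit to the 6 h arrays 3 of the 27 rose, and 4 with the mean of probe sets. Atf3, a stress-induced factor, was near the dim end in controls (18.6 to 31.3) and at 57.5, 190, 24.3, 653, 157 and 128 after vincristine (log2 1.89 ± 0.47, adjusted p = 0.015). Jun was at 870, 1358, 694, 2001, 1575 and 1550 beside 470 to 855 in controls (log2 0.98 ± 0.25, adjusted p = 0.017). Its partner Jund rose by 0.73 ± 0.19 (adjusted p = 0.017), Ier5 by 0.94 ± 0.26 (adjusted p = 0.029) and Maff by 0.84 ± 0.24 (adjusted p = 0.033). Second, dimmer probe sets of Jund and Ier5 had the opposite sign. Of 3 called members of this list with a promoter in the table, 2 (Jund and Maff) held TGACGTCA, the site of the CREB and ATF family, which 278 of 9414 promoters (2.95%) held.

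Of the glucocorticoid-responsive genes, 3 of 19 rose, against 2.05% of all genes (median 0.31): Errfi1, a feedback inhibitor of the EGF receptor (log2 1.26 ± 0.32, adjusted p = 0.015), Fam107a (1.20 ± 0.29, adjusted p = 0.013) and Cebpd (1.31 ± 0.39, adjusted p = 0.041). The rises in the lists that follow stand beside the same 2.05% of all genes. Gadd45a, a growth arrest gene, was the 1 of 14 p53 targets that rose (log2 0.80 ± 0.22, adjusted p = 0.027). Of 22 genes of the Bcl2 family and caspases 2 rose, the survival factor Mcl1 (0.72 ± 0.20, adjusted p = 0.028) and Bnip3. Of 31 genes of the unfolded protein and amino acid response 2 rose, Asns, asparagine synthetase (0.65 ± 0.17, adjusted p = 0.021), and Aldh18a1 of proline synthesis (0.38 ± 0.10, adjusted p = 0.019). The co-chaperones Dnajb4 and Dnajb5 were the 2 of 20 heat shock genes that rose (log2 0.92 ± 0.22 and 0.93 ± 0.23, adjusted p = 0.013 and 0.015). The proteasome had 2 of 32, Psmd8 and Psmd12, and 0 after quantile normalization, without a filter or in the 6 h fit. Ribosome biogenesis had 1 of 39, near the 2.05% of all genes that rose: Polr1a, the large subunit of RNA polymerase I (0.41 ± 0.10, adjusted p = 0.015). Mitosis (23 genes) and DNA replication (22 genes) had 0 past the threshold, beside 3.3% of all genes.

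Genes of endothelial activation and coagulation rose: 6 of 19 tested, against 2.05% of all genes, while 1 fell (median 0.49). Which cells of the heart held these transcripts was not tested. Icam1, to which leukocytes bind, was at 232, 307, 158, 320, 434 and 379 beside 109 to 157 in controls (2.05-fold, log2 1.03 ± 0.24, adjusted p = 0.012). All 6 hearts were above every control, replicate 3 by the narrowest margin. Vcam1, another adhesion molecule, was at 102, 119, 90.8, 203, 148 and 106 beside 38.4 to 82.4 (log2 0.87 ± 0.25, adjusted p = 0.032), also without overlap. Fgl2, a prothrombinase, was at 726, 1078, 543, 1163, 995 and 1364 beside 199 to 486 (2.79-fold, log2 1.48 ± 0.33, adjusted p = 0.0096). Plat, tissue plasminogen activator, rose by 0.92 ± 0.23 (adjusted p = 0.014), and Adamts1, a matrix protease, by 1.84 ± 0.46 (adjusted p = 0.015). Esm1, endocan of activated endothelium, was the 1 that fell (log2 -0.52 ± 0.14, adjusted p = 0.022) and was named after its value was seen.

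Of 19 such genes, 4 had 6 vincristine hearts above all 6 vehicle hearts, beside 0.654% of all genes. In the whole data 126 genes (1.11%) did not overlap in either direction, and 75 of them also passed the threshold. Of 27 endothelial identity genes 2 were up and 3 down (median -0.07), beside 2.05% and 1.25% of all genes. After quantile normalization 0 were up and 3 down, and with a fit to the 12 arrays alone none passed in either direction. The junction protein Esam (log2 0.46 ± 0.13) and the water channel Aqp1 (0.47 ± 0.12) rose, while endomucin (Emcn, -0.46 ± 0.12), the factor Sox18 (-0.67 ± 0.20) and Tal1 (-0.26 ± 0.07) fell. Their adjusted p-values were 0.017 to 0.048. The summed markers ran from 19000 to 24100 in the vehicle hearts and from 21900 to 26000 after vincristine. Mcam, of pericytes and endothelium, rose by 0.48 ± 0.13 (adjusted p = 0.021).

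Of 17 Notch pathway genes 2 fell, against 1.25% of all genes, and the median was -0.05, with 7 positive and 10 negative. Hey1 was tightly held in controls, between 366 and 417, and stood at 303, 143, 371, 136, 136 and 176 after vincristine (1.98-fold lower, log2 -0.99 ± 0.25, adjusted p = 0.018). Hey2 lay between 211 and 295 and at 195, 103, 227, 123, 129 and 131 (log2 -0.65 ± 0.17, adjusted p = 0.02). Both are transcription factors that Notch receptors switch on. Gucy1a1 encodes part of the guanylyl cyclase that senses nitric oxide. It was the only 1 of 27 vascular tone genes that passed, beside 3.3% of all genes. It lay between 377 and 588 in controls and at 379, 196, 417, 255, 267 and 216 after vincristine (log2 -0.70 ± 0.15, adjusted p = 0.0091). Btnl9 (-0.71 ± 0.19, adjusted p = 0.02), Gask1b (-0.72 ± 0.22, adjusted p = 0.048), the ubiquitin ligase Mylip (-0.78 ± 0.17, adjusted p = 0.0091) and the growth factor Fgf16 (-0.75 ± 0.22, adjusted p = 0.04) were among the other large falls.

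Timp3, an inhibitor of matrix metalloproteinases, had the lowest adjusted p of all genes. It was at 2605, 3594, 2255, 3689, 2907 and 3027 beside 1230 to 1767 in controls (1.9-fold, log2 0.93 ± 0.16, adjusted p = 0.0026), and no array was inside the vehicle range. A second Timp3 probe set of like brightness (mean 2330 against 2290 on the 12 arrays) was at log2 0.52. Dimmer ones were at 0.89 and 0.96. Of 33 extracellular matrix genes 2 rose, beside 2.05% of all genes, and Tinagl1 was the other (log2 1.25 ± 0.32, adjusted p = 0.018). Inhba, the activin subunit, was at 73.6, 88.2, 72.6, 179, 157 and 103 beside 43.6 to 68.9, also without overlap (log2 0.72 ± 0.21, adjusted p = 0.036). Its other probe set, a little dimmer (mean 67.9 against 85.4), was at log2 0.13. Tcf21, a fibroblast factor, rose by 0.75 ± 0.18 (adjusted p = 0.014). Tnfrsf11b, the decoy receptor osteoprotegerin, rose from a dim level (log2 0.33 ± 0.09, adjusted p = 0.032), and its family member Tnfsf13, the ligand APRIL, fell (log2 -0.40 ± 0.09, adjusted p = 0.013).

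Macrophage markers fell: 7 of 24 tested, against 1.25% of all genes, while 1 rose (median -0.23). Stab1, a scavenger receptor of resident macrophages, lay between 135 and 276 in the vehicle hearts and at 107, 72.5, 143, 55.1, 71.3 and 73.6 after vincristine (2.08-fold lower, log2 -1.06 ± 0.21, adjusted p = 0.0052). The complement chain C1qa lay between 266 and 450 and at 306, 138, 420, 119, 161 and 93.2 (log2 -0.93 ± 0.25, adjusted p = 0.022). Its partner C1qc fell by 0.90 on the log2 scale (standard error 0.22, adjusted p = 0.014) and F13a1, coagulation factor XIII A of resident macrophages, by 0.67 (standard error 0.20, adjusted p = 0.046). Replicates 1 and 3 were inside the vehicle range for C1qa and C1qc. The summed markers were 4620 to 7200 in controls and 3640 to 6210 after vincristine, the highest being replicate 3. With a fit to the 12 arrays alone, 2 of the 24 fell.

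Cd14, the co-receptor for bacterial lipopolysaccharide on monocytes, was the marker that rose. It was at 169, 265, 114, 292, 444 and 189 beside 83.3 to 136 in controls (log2 0.94 ± 0.24, adjusted p = 0.015). MHC class II genes, which antigen-presenting cells hold, were negative in 9 of 9 (median -0.36) with 0 past the threshold, beside 3.3% of all genes. RT1-Da was at 999, 409, 1317, 380, 437 and 262 beside 651 to 1186 (log2 -0.68 ± 0.24, adjusted p = 0.1), RT1-Db1 at log2 -0.62 ± 0.20 and RT1-Ba at -0.62 ± 0.22. The value of RT1-Ba is that of its brightest probe set, and its other 3 were at -0.07, 0.00 and 0.04. In replicate 3, 4 of the 9 class II genes were above every control. Without the 10 arrays of the series that lie nearer another group, 4 of the 9 fell, beside 580 of 11319 genes. Those arrays were picked from these same values, so the larger count is no added support.

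S100a9, a calcium-binding protein that neutrophils hold in bulk, was at 144, 352, 40.9, 601, 596 and 675 beside 35.4 to 91.3 in controls (4.31-fold, log2 2.11 ± 0.53, adjusted p = 0.015). It was the 1 of 7 tested neutrophil markers past the threshold, out of 19 listed, beside 3.3% of all genes. The summed level of the 7 was 429 to 545 in controls and 433 to 1630 after vincristine, and the part of neutrophils in the change of S100a9 was not tested. Ccl2, which draws monocytes, rose (116, 215, 83.9, 204, 299 and 169 beside 46.2 to 86.5; log2 1.27 ± 0.35, adjusted p = 0.029), and the chemokine receptor Cxcr4 fell (log2 -0.70 ± 0.18, adjusted p = 0.019). They were 2 of 30 chemokine and cytokine genes, 1 up and 1 down, beside 2.05% and 1.25% of all genes. Of NF-kappaB and acute phase genes, 4 of 24 rose (2 in the 6 h fit), against 2.05% of all genes, and none fell: Cebpb (1.37 ± 0.36, adjusted p = 0.019), Cebpd, the interleukin 1 receptor Il1r1 (0.63 ± 0.15, adjusted p = 0.012) and the survival factor Birc2 (0.38 ± 0.11, adjusted p = 0.033).

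Interferon-stimulated genes rose in 6 of 32, against 2.05% of all genes, and fell in none (median 0.23), and 5 of the 32 did not overlap with the vehicle hearts, beside 0.654% of all genes. Their order among the hearts differed from that of the tubulins. Irf1, a transcription factor of the interferon gamma response, was at 318, 427, 321, 276, 392 and 448 beside 169 to 270 in controls (1.53-fold, log2 0.62 ± 0.12, adjusted p = 0.0052). Gbp2, a guanylate-binding protein, was at 242, 255, 233, 183, 255 and 241 beside 88.8 to 177 (log2 0.75 ± 0.19, adjusted p = 0.015). Ifitm3, which blocks viral entry, was at 3983, 4493, 3724, 5017, 4924 and 4714 beside 2144 to 3484 (log2 0.59 ± 0.13, adjusted p = 0.0091). For these 3 genes every vincristine heart was above every control, and for Irf1 and Gbp2 the lowest was replicate 4, not replicate 3. Tap1, the peptide transporter (0.50 ± 0.15, adjusted p = 0.04; a second, dim probe set had the opposite sign), and Dtx3l (0.52 ± 0.16, adjusted p = 0.044) also rose.

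On the array of replicate 3, 16 of the 32 interferon-stimulated genes were above every control and none below. Over all genes, 13.1% were above every control on that array and 8.88% below. Of the tubulins, 0 of 9 were outside the vehicle range on it, of the immediate early genes 0 of 27 were above and 2 below, and of the endothelial activation genes 7 of 19 were above. Unrelated lists also exceeded 13.1%: 7 of 15 pericyte and smooth muscle markers, 7 of 19 fibroblast markers and 20 of 64 oxidative phosphorylation genes were above. Of these lists, only the fibroblast list had a gene below every control (1 of 19). The median over the interferon list was 0.32 above the vehicle mean for replicate 3 and 0.10 to 0.48 for the other 5 hearts. In the tubulin list the medians were 0.08 for replicate 3, -0.23 for replicate 1 and -1.45 to -1.29 for the other 4.

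**Figure D3:**
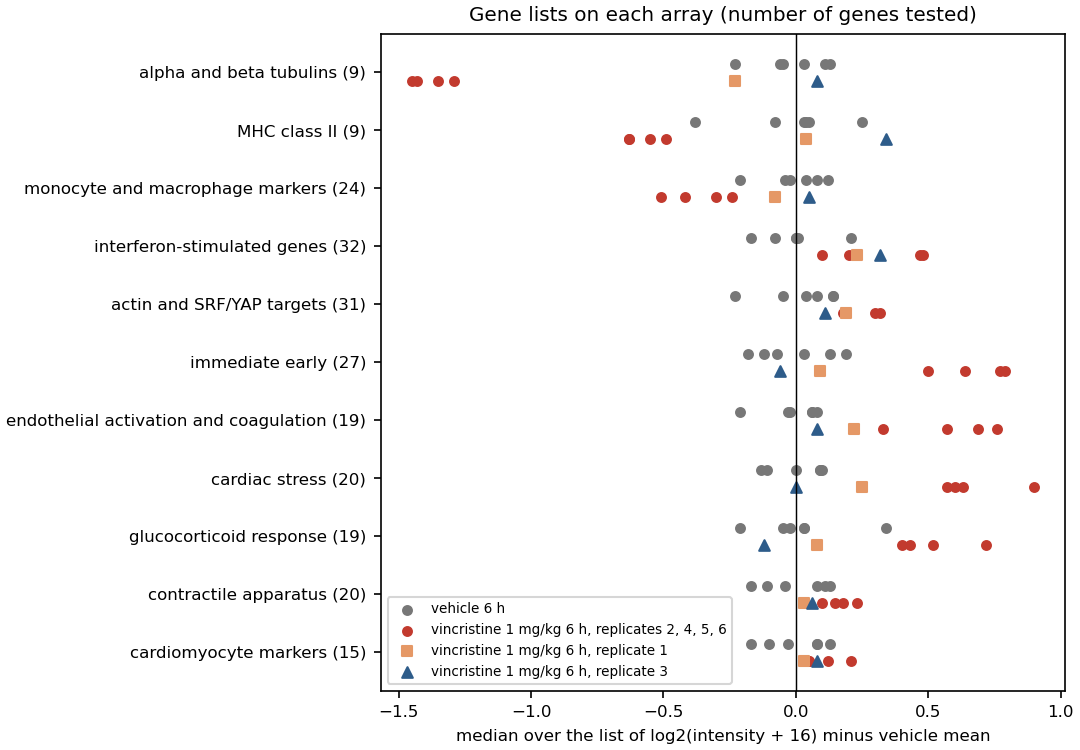
Median over each gene list of the difference from the vehicle mean in log2(intensity + 16), 1 point per array, for vehicle (upper points) and vincristine 1 mg/kg at 6 h (lower points, with replicates 1 and 3 marked). Replicate 3 lies among the vehicle points for tubulins, immediate early and cardiac stress genes and at 0.32, above all 6 of them, for interferon-stimulated genes.

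The promoter of Irf1 is shown because its site for STAT factors, TTCNNNGAA, and its NF-kappaB site are the classical inputs to this gene. Both are in capitals, in that order (RefSeq, GRCr8, the bases up to the last before the start).
Irf1 (chr10:38417785-38417934, plus strand): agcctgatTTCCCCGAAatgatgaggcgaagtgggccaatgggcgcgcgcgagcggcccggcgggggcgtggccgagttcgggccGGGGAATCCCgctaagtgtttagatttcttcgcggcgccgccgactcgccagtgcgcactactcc

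TTCNNNGAA, on either strand within 250 bases before the start, was present in 3 of the 6 promoters of called interferon-stimulated genes and in 542 of 9414 (5.76%) of the genes tested, and the NF-kappaB site in 2 of the 6 and in 402 of 9414 (4.27%). Vcam1 also held the NF-kappaB site, and Icam1 held TTCNNNGAA.

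Genes of hypoxia and glucose use rose in 4 of 35, against 2.05% of all genes (median 0.12). After quantile normalization 2 rose (median 0.02), and 2 in the fit to the 12 arrays. Ndrg1, a stress-responsive gene, was at 489, 602, 422, 582, 601 and 643 beside 312 to 421 in controls, without overlap (log2 0.62 ± 0.13, adjusted p = 0.0091). The others were the glycolytic enzyme Pfkp (0.56 ± 0.14, adjusted p = 0.015), the mitophagy receptor Bnip3 (0.59 ± 0.18, adjusted p = 0.047) and Higd1a (0.31 ± 0.07, adjusted p = 0.013).

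Of the 91 genes past the threshold that were followed singly, 11 stayed past it in every alternative tried, leaving out each array in turn included: Timp3, Irf1, Ifitm3, Fgl2, Flna, Tpm4, Ndrg1, Tmem140, Stab1, Mylip and Gucy1a1. The other 80 lost the call in at least 1 alternative, Tuba4a in 3 of 24 and Tubb4b in 1 of 24. Without vincristine replicate 4, 77 of the 91 lost it, without replicate 5, 69, without replicate 6, 53, and without replicate 2, 29. Without vehicle replicate 3, 36 lost it, without vehicle replicate 6, 35, and without vehicle replicate 1, 22. Without vincristine replicate 3 none did, and without replicate 1 only 1 did.

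Markers of lymphocytes (12 genes), adipocytes (4), red cells and platelets (6), mesothelium and Schwann cells (5) and atrial muscle (6) had 0 past the threshold. So did IL-6 family signalling (15), Nrf2 and glutathione genes (25), the circadian clock (17), iron handling (14) and mitochondrial regulators (19). With 3.3% of all genes past it, 0 in lists this short is near the share of all genes. Without the 10 arrays of the series that lie nearer another group, 815 of 11319 genes rose and 580 fell, and list counts were larger. Rises were 13 of 27 immediate early, 12 of 19 endothelial activation, 11 of 24 NF-kappaB and 10 of 31 actin, SRF and YAP genes. Also up were 10 of 20 cardiac stress, 9 of 19 glucocorticoid-responsive and 9 of 35 hypoxia genes, and 13 of 24 macrophage markers fell. Those 10 arrays were picked by distance in these same values, and leaving them out narrows the spread within groups. The larger counts are thus no added support.

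**Figure D4:**
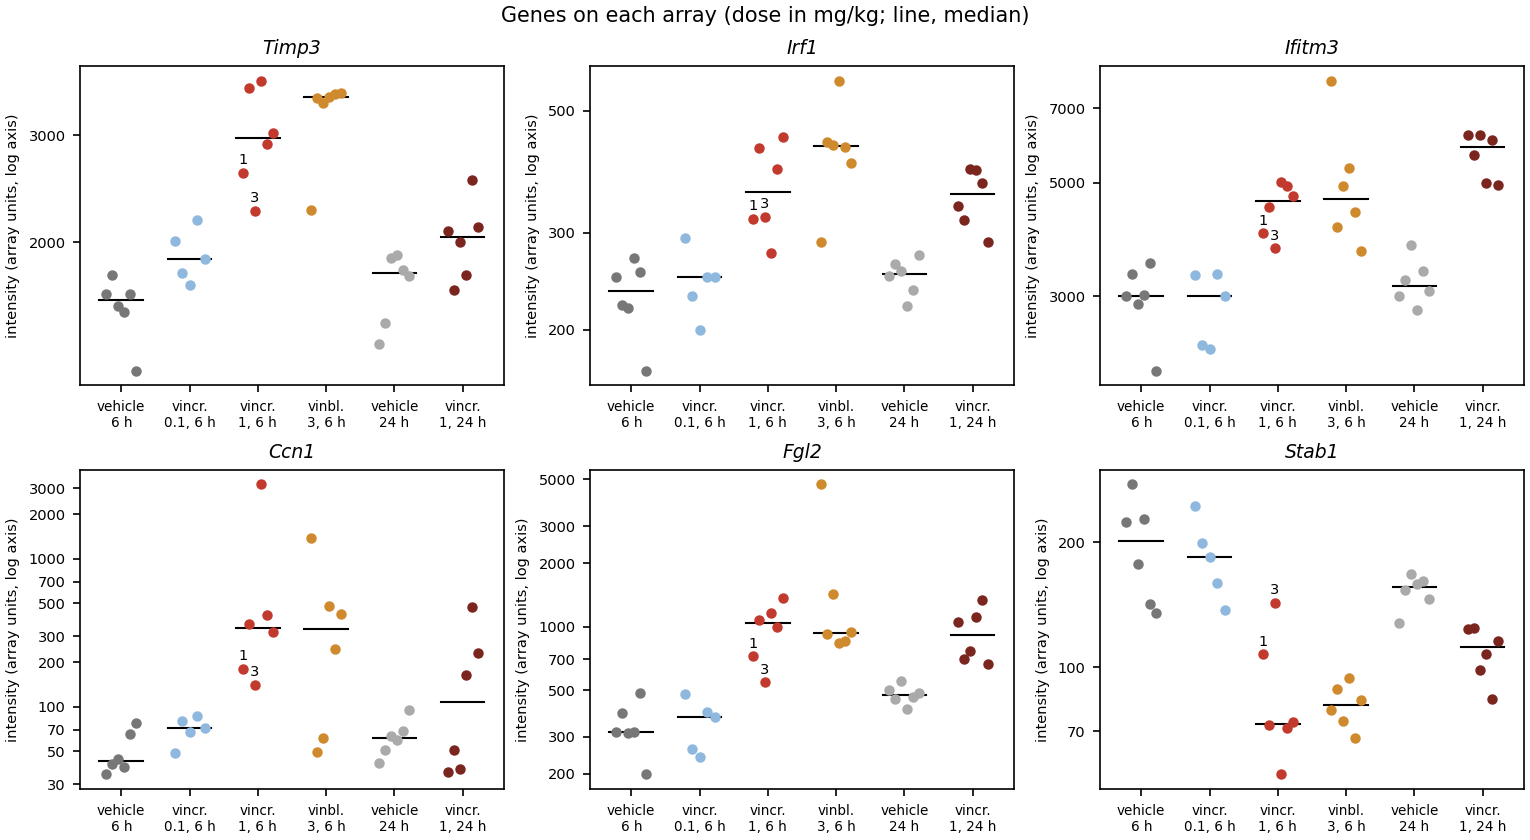
Intensity (log axis) of 5 genes that rose and 1 that fell (Stab1) on each array, by group, with the group median as a line and vincristine 1 mg/kg replicates 1 and 3 numbered. For Timp3, Irf1, Ifitm3, Ccn1 and Fgl2 all 6 vincristine 1 mg/kg hearts at 6 h lie above all 6 vehicle hearts.

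Vincristine at 1 mg/kg differed from 0.1 mg/kg at 6 h in 318 genes (2.81%), of which 182 were higher (1.61%) and 136 lower (1.2%). The difference itself uses no vehicle array, while the error comes from the fit to all 82 arrays. A fit to the 11 arrays of both doses gave 346 genes, 209 of them among the 318. The count was 657 without vincristine 1 mg/kg replicate 3 and 78 without replicate 4, 111 without either of 2 of the 0.1 mg/kg arrays (replicates 2 and 3), and 131 to 179 without vincristine 1 mg/kg replicate 2, 5 or 6 or 0.1 mg/kg replicate 5. After quantile normalization 189 were higher and 216 lower. Tuba4a lay between 4806 and 5729 at 0.1 mg/kg, close to the control median of 5187, and was lower at 1 mg/kg (log2 -2.09 ± 0.51, adjusted p = 0.015). Ccn2 lay between 425 and 585 at 0.1 mg/kg (difference 2.10 ± 0.42, adjusted p = 0.0047), Nppb between 2394 and 5059 (1.47 ± 0.34, adjusted p = 0.011), Irf1 between 200 and 294 (0.53 ± 0.13, adjusted p = 0.015) and Stab1 between 138 and 245 (-0.99 ± 0.22, adjusted p = 0.0088). Timp3 lay between 1704 and 2180 at 0.1 mg/kg against 1230 to 1767 with vehicle, and it too differed between the doses (0.64 ± 0.17, adjusted p = 0.025). Ccn1 did not pass between the doses (2.29 ± 0.74, adjusted p = 0.071).

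Vinblastine, a vinca alkaloid whose structure differs from that of vincristine in carrying a methyl in place of a formyl group on 1 nitrogen, was given at 3 mg/kg, so the doses differ. Between vincristine 1 mg/kg and vinblastine 3 mg/kg at 6 h, 0 of 11319 genes passed with limma. The lowest adjusted p was 0.154, and 1516 genes had an unadjusted p under 0.05. This does not show that the compounds act alike. Side by side, Tuba4a had a median of 661 with vinblastine (556 to 841) and of 733 with vincristine (508 to 5966). Tnfrsf12a lay between 1067 and 1725 with vinblastine and between 148 and 1196 with vincristine, and S100a9 between 685 and 1194 against 40.9 to 675. Irf1 lay between 288 and 566 against 276 to 448.

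The change against the vehicle of the same time differed between 24 h and 6 h in 1387 genes (12.3%), 399 with the higher (3.53%) and 988 with the lower value at 24 h (8.73%). After quantile normalization the split was 675 and 575. The macrophage genes C1qa, C1qc and F13a1, low at 6 h, were not low at 24 h. C1qc lay between 384 and 572 at 24 h beside 310 to 375 with vehicle, a change that exceeded that at 6 h by 1.42 ± 0.31 (adjusted p = 0.0012). C1qa did likewise (1.21 ± 0.35, adjusted p = 0.015) and F13a1 lay between 166 and 348 beside 99.4 to 152 (1.56 ± 0.29, adjusted p = 0.0002). Stab1 was below its controls, at 83.9 to 124 beside 128 to 168, and its change did not differ between the times past the threshold (0.62 ± 0.30, adjusted p = 0.17). Kcnj5 stood at 371 to 478 beside 197 to 264, so that its fall at 6 h and its value at 24 h were opposite (1.31 ± 0.17, adjusted p = 1.85e-07).

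The early cytoskeletal and matrix rises of Flna, Tpm4 and Timp3 were smaller at 24 h. Flna had returned to 973 to 1490 beside 1118 to 1577 with vehicle (difference of changes -0.65 ± 0.18, adjusted p = 0.011), Tpm4 to 1528 to 2030 beside 1827 to 2396 (-0.85 ± 0.19, adjusted p = 0.0013) and Timp3 to 1668 to 2529 beside 1360 to 1908 (-0.67 ± 0.23, adjusted p = 0.041). Mapre1 (-0.40, adjusted p = 0.021) and Higd1a (-0.56, adjusted p = 0.0002) did likewise. Hs3st5, a heparan sulfate sulfotransferase, was high at 6 h (66.5 to 193 beside 39.4 to 86.6) and low at 24 h (18.7 to 34.3 beside 37.6 to 93.3), a difference of -1.96 ± 0.43 (adjusted p = 0.0011). Csrp3 and Psmd8 went further up, by 0.59 ± 0.20 and 0.62 ± 0.21 (adjusted p = 0.037 and 0.041).

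For other leading genes the test of the time difference did not pass. Tuba4a lay between 707 and 1187 at 24 h (difference -0.45 ± 0.69, adjusted p = 0.75) and Tubb4b between 1487 and 2227 beside 1876 to 4112 with vehicle (0.95 ± 0.59, adjusted p = 0.32). Tubb2a stood at 998 to 1517 beside 641 to 1157 (1.33 ± 0.49, adjusted p = 0.06). The change of Ccn2 at 24 h differed from that at 6 h by -0.02 ± 0.57. Otud1 was at 721 to 1540 beside 402 to 577 (-1.54 ± 0.80, adjusted p = 0.22), and Atf3 changed by 0.58 at 24 h against 1.89 at 6 h (adjusted p of the difference 0.2). Of the 5 largest differences in each direction, 9 were in genes that had not passed at 6 h, Hs3st5 being the other. The transferrin receptor Tfrc was at 1896 to 3316 beside 1340 to 3093 at 6 h, and at 153 to 318 beside 1548 to 3237 at 24 h (-4.07 ± 0.48, adjusted p = 2.12e-08). Angptl4, an inhibitor of lipoprotein lipase, had a change of 0.68 at 6 h and of 3.46 at 24 h (difference 2.78, adjusted p = 0.0016).

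**Figure D5:**
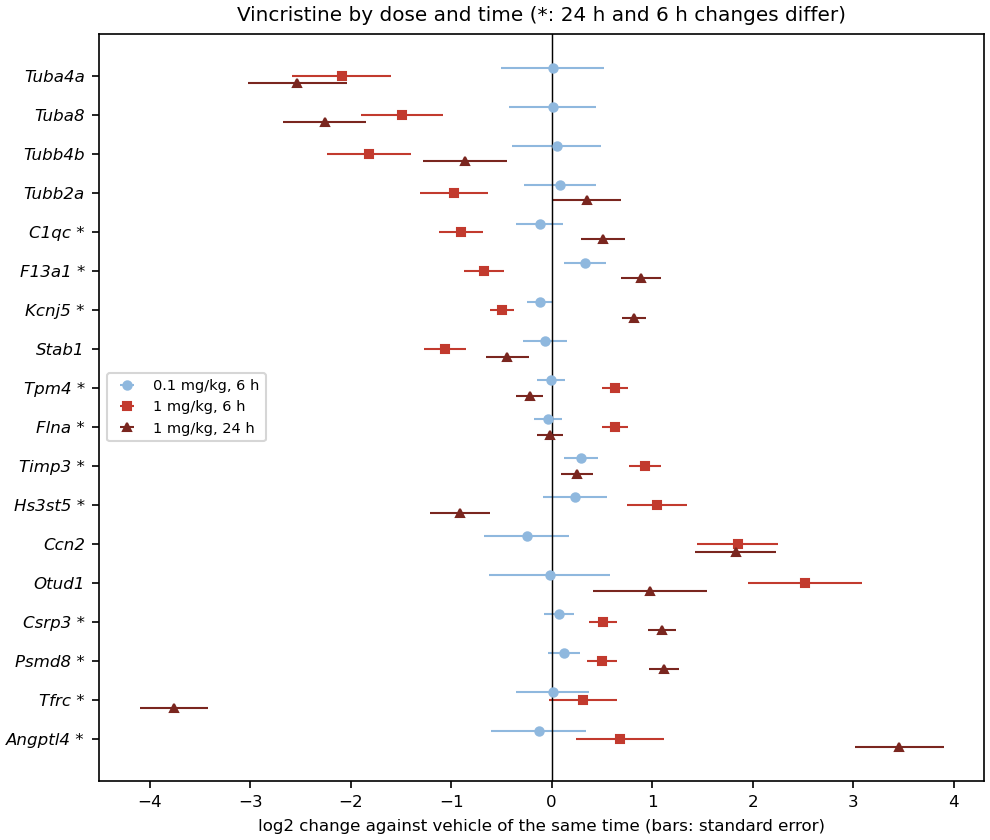
Log2 change against the vehicle of the same time, with its standard error, of 18 genes for vincristine 0.1 mg/kg at 6 h (circles), 1 mg/kg at 6 h (squares) and 1 mg/kg at 24 h (triangles). The asterisk marks genes whose change differed between 24 h and 6 h past the threshold; both 6 h doses share the same 6 vehicle arrays.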

How the data were processed

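Hearts of male rats were measured on 82 arrays in 14 groups, with 6 rats per group and time per the labels and 5 arrays for vincristine 0.1 mg/kg. The deposited table holds linear intensity values of 31099 probe sets; how the authors summarised and normalized them is not given in the sources used here. Arrays have no read depth, so their number limits the precision. For this work 16 was added before log2. The probe set with the highest mean stood for its gene, symbols were updated through RefSeq's list of GRCr8 genes, and those above the 40th percentile of their array on at least 5 arrays were tested (11319 genes). A gene bright only after treatment could pass this filter.

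Group means over all 82 arrays were fitted with limma 3.58.1 (R 4.3.3; residual df 68, prior df 4.7), two-sided, with Benjamini-Hochberg adjustment over all genes and a threshold of 0.05. Errors are the model's standard errors, on the log2(intensity + 16) scale, which understates the change of dim genes. Plots used Python 3.11.15 and matplotlib 3.10.9. The code was tested on simulated data. Alternatives were another added constant, quantile normalization, other filters, the mean of probe sets, smaller fits, array weights, a replicate block, and leaving out arrays singly or in sets. Where an array lay nearer another group than its own by a ratio over 1.3, it counted as set apart (10 arrays of the series).

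The rule for named genes took, among genes past the threshold, the 15 that rose most and the 15 that fell most, up to 5 called members of each of 49 gene lists, all tested alpha and beta tubulins, the first 3 members of described lists with no call, and for the other comparisons the 5 largest changes in each direction. Others are marked as named after their values were seen. Members and lists were chosen with earlier results of these data known. A gene can stand in several lists, so the list counts are not independent of each other. Promoters matched 83 of the 105 genes named for the main comparison. Some results are not reported here.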

Additional observations from a re-analysis of the deposited data

Results flagged for a closer look

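In 4 of 210 sets of 6 arrays (a named gene in the vehicle or the vincristine 1 mg/kg group), 1 array lay far from the other 5, where chance gives about 10.5. The check looks for a single array and can miss a group in which 2 stand apart. Tuba4a after vincristine, with replicates 1 and 3 at 4038 and 5966 beside 508 to 739, was not flagged. The count thus does not show that the hearts were alike. The gap to the nearest other array, as a share of the range, was taken on the log2 scale of the fit. The intensities in brackets are linear. On vincristine replicate 4 the share was 0.664 for Ccn1 (3184 against 141 to 416) and 0.729 for Gbp2 (183 against 233 to 255). It was 0.633 for Mef2c on vincristine replicate 2 (467 against 778 to 1044). For Birc2 on vehicle replicate 6 it was 0.639 (297 against 361 to 403).

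The time difference was followed through the alternatives in 31 genes, some of them picked as the largest changes of this same test. Their share past the threshold therefore cannot be set against the 12.3% of all genes. The change against vehicle differed between 24 h and 6 h past the threshold, by the test of that difference, in 25 of the 31. It was higher at 24 h for Angptl4 (2.78), Hamp, the iron hormone hepcidin (2.31), Mgst1 (2.16), Plb1 (2.16), Chi3l1 (2.09), F13a1 (1.56), C1qc (1.42), Kcnj5 (1.31), C1qa (1.21), Psmd8 (0.62), Csrp3 (0.59) and Tnfsf13 (0.38), all on the log2 scale. It was lower at 24 h for Tfrc (-4.07), Hs3st5 (-1.96), Nmrk2 (-1.91), the glucose transporter Slc2a4 (-1.88), Apln (-1.80), Tpm4 (-0.85), Tubb1 (-0.73), Timp3 (-0.67), Flna (-0.65), Higd1a (-0.56), Mapre1 (-0.40), Myh6 (-0.36) and Ttc5 (-0.30).

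Among 4961 probe sets that name no gene or more than 1, fitted apart from the 11319 genes, 51 passed the threshold at 6 h (1.03%), 32 higher and 19 lower.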

How the results depend on the processing

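The comparison of vincristine 1 mg/kg with vehicle gave 217 genes in a fit to its 12 arrays, 208 in a fit to the 6 h arrays and 1395 without the 10 arrays set apart (an alternative chosen after seeing the data; 373 of the 374 were among them). Leaving out each array in turn gave 31 to 717. The difference from 0.1 mg/kg gave 651 genes with array weights, 142 without the arrays whose description ends in _2, 1275 without those set apart, and 78 to 657 leaving out each array. The 24 h against 6 h difference gave 2157 genes with array weights and 1044 to 1646 leaving out each array. Against vinblastine, 1 gene passed without a filter, 1 with array weights and 1 without the arrays set apart, and 0 to 3 leaving out each array. Correlations of same-numbered deviations were -0.0748 to 0.319, which neither shows nor excludes that the replicate numbers pair the hearts. With the replicate block the counts were 407, 277, 1436 and 0. Of the values named, those that turned sign had not passed: Myh6 (-0.01) and Tnni3 (-0.02) after quantile normalization, and the Tuba4a time difference (0) without the arrays set apart or without vincristine replicate 3 (-0.70 to 0 leaving out each array). For the 91 named genes past the threshold, 967 of 1090 values under other settings and 735 of 1092 leaving out each array stayed past it in the same direction. A fit to the time points compared was not run for the time difference, which uses both. The cause of these moves was not tested. Dim probe sets limit what small changes can be read.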
